A study of Homo sapiens with 8 samples.

Results

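DCIS.COM cells were compared with MCF10A cells in the absence of HOTAIR overexpression, using the 4 of 8 RNA-seq libraries whose cells carried the empty pCDH vector, 2 libraries from each cell line, and 13771 genes. Libraries were chosen by their line and vector labels alone. MCF10A is an immortalized, non-tumorigenic line of human breast epithelium, while DCIS.COM descends from MCF10A cells that were transformed with HRAS and passed through xenografts, and forms lesions resembling ductal carcinoma in situ (DCIS) in mice. Both lines had been stably transduced with a lentiviral pCDH vector and selected with puromycin, so that each group is 1 transduced population of its line. The other 4 libraries, from MCF10A and DCIS.COM cells that carried pCDH-HOTAIR, served to estimate the spread between libraries and are given as a second look at the same line difference. MCF10A cells were grown in DMEM/F-12 with horse serum, epidermal growth factor (EGF), hydrocortisone, insulin and cholera toxin, and DCIS.COM cells in DMEM/F-12 with horse serum alone. The cell line and its medium therefore cannot be told apart in any comparison given here. No source says whether the libraries of a group came from separate cultures, so that p-values measure only the spread between these libraries, which may be technical.

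The breast duct is lined by luminal cells, which carry the simple keratins KRT8 and KRT18, and by a basal layer that carries KRT5, KRT14 and the transcription factor TP63 and rests on a basement membrane of laminins and collagens. MCF10A cells are known for mixed, mainly basal features. Active RAS proteins pass growth factor signals on to the kinase ERK, whose output includes transcription factors of the ETS family and the Sprouty feedback inhibitors. Hydrocortisone acts through the glucocorticoid receptor, cholera toxin raises cyclic AMP, and EGF acts through its receptor EGFR upstream of RAS.

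Reads recovered from the deposited values summed to 31598168 and 27005146 in MCF10A and to 32258562 and 25819136 in DCIS.COM. DCIS.COM library 1 stood apart. RN7SL1 and RN7SL2, near-identical RNA genes of the signal recognition particle, took 18.92% of its reads against 12.55% in DCIS.COM library 2 and 13.73% to 14.95% in MCF10A. The DCIS.COM libraries differed by 1.5-fold or more in 1446 genes, against 414 genes between the MCF10A libraries, and DCIS.COM library 2 was closer to the DCIS.COM pCDH-HOTAIR libraries (469 and 534 genes) than to library 1. Between the lines, 6246 to 7082 genes differed by 1.5-fold or more for any pair of libraries, with a median absolute log2 difference of 0.513 to 0.611. The epithelial markers EPCAM and CDH1 were present in all 4 libraries (EPCAM at 65.6 and 69.8 CPM (read counts scaled to the library total) in MCF10A and 314 and 370.1 CPM in DCIS.COM). Of markers of other cell types, 4 of 12 fibroblast genes, 2 of 10 endothelial genes and 3 of 12 leukocyte genes were in the table. Their summed levels were 101 and 115 CPM in MCF10A against 1.63 and 2.31 CPM in DCIS.COM for fibroblast genes (limma called 4 higher in MCF10A and 0 higher in DCIS.COM, where 0 also had an unadjusted p under 0.05 and limma-voom called 0), 3.98 and 3.65 CPM against 13.3 and 12.6 CPM for endothelial genes (PECAM1 higher in DCIS.COM and ROBO4 higher in MCF10A), and 53 and 50.7 CPM against 6.88 and 5.78 CPM for leukocyte genes (all 3, CD14, CSF1R and CD68, higher in MCF10A, and 0 in DCIS.COM by the same 3 counts). The part of other cell types in the results was not tested.

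In all, 6370 of 13771 genes differed between the lines (46.3%). At an adjusted p under 0.05 in limma and a fold change of at least 1.5, 3095 genes were higher in DCIS.COM (22.5% of 13771) and 3275 were higher in MCF10A (23.8%). Counts of list members given below are to be read beside these shares of all genes. At a fold change of at least 4, 801 genes (5.82%) were higher in DCIS.COM and 973 (7.07%) in MCF10A. Leaving out DCIS.COM library 1 gave 3025 and 3102 genes, and leaving out DCIS.COM library 2 gave 3300 and 3641. Of the 423 genes named here by rule, 417 passed the test, with a median standard error (SE) of the log2 difference of 0.159, a highest SE of 0.672 and a highest adjusted p of 0.0481 (limma, Benjamini-Hochberg over all genes). None of these 417 changed direction under any of 16 alternatives, while 15 lost the call under at least 1, and these are pointed out where they appear. The 5 genes with the most reads were the same in both lines (RN7SL1, RN7SL2, RN7SK, RMRP and EEF1A1), and none passed the test. Values below are given for libraries 1 and 2 of each line, with MCF10A first, and log2 differences are DCIS.COM minus MCF10A. CPM values are not corrected for gene length, so that levels are compared between libraries for each gene and not between genes. In bulk RNA, fewer cells with a transcript and less of it per cell cannot be told apart. Without DCIS.COM library 1, the gene lists that are described first by their counts gave 10 of 17 basal keratins, 21 of 29 mesenchymal genes, 18 of 28 glucocorticoid targets and 31 of 41 interferon-stimulated genes higher in MCF10A, and 12 of 23 genes of ERK output, 26 of 32 sterol synthesis genes and 27 of 48 cell cycle genes higher in DCIS.COM. The printed median of each list was the same when genes at 0 reads in a line were set to their lower bound.

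**Figure D1:**
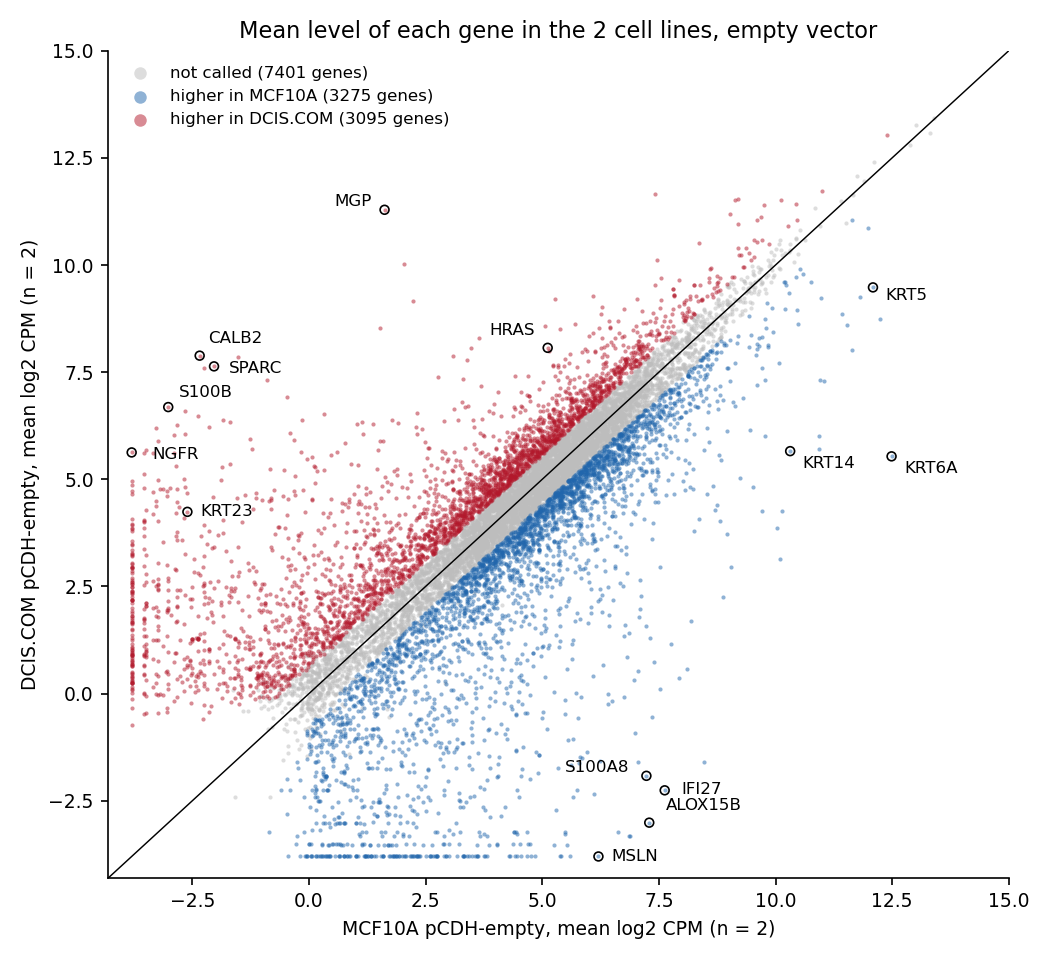
Mean log2 CPM of each gene in the 2 MCF10A pCDH-empty libraries (x axis) and the 2 DCIS.COM pCDH-empty libraries (y axis), with the line of equal level. Blue points are the 3275 genes called higher in MCF10A, red points the 3095 called higher in DCIS.COM, grey points the rest, and 14 named genes are circled. MGP and SPARC lie far above the line and KRT6A and IFI27 far below it.

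The largest differences were genes with many reads in one line and almost absent from the other. CALB2, which encodes the calcium-binding protein calretinin, had 6 and 2 reads in MCF10A and 7739 and 5814 reads in DCIS.COM. MGP, a secreted inhibitor of calcification, had 2.89 and 3.12 CPM in MCF10A and 2309 and 2711 CPM in DCIS.COM, a log2 difference of 9.67 (SE 0.280, adjusted p = 5.26e-08). SPARC, a matrix-binding glycoprotein, had 0.128 and 0.225 CPM against 201 and 197 CPM, and the cadherin gene CDH19 had 0.0962 and 0.188 CPM against 176 and 214 CPM. These genes were chosen for the size of their difference, so that the lack of overlap between the lines follows from the choice. The DCIS.COM libraries lay close together, while the MCF10A libraries, at low levels, were further apart for CALB2, SPARC and CDH19. NGFR, the low-affinity neurotrophin receptor and a marker of myoepithelium, had no read in either MCF10A library and 1233 and 1591 reads in DCIS.COM, at least 480.3-fold higher when 3 reads per library are taken as the floor. S100B, a calcium-binding protein, had 1 and 2 reads against 3079 and 2767, and PPP1R1B, which encodes the phosphatase regulator DARPP-32, had 0 and 2 reads against 2161 and 1987. The other genes among the 12 largest differences in this direction were LOXL4 (a lysyl oxidase), GUCY1A1 (a subunit of guanylate cyclase), PRSS21 (a serine protease), FBN2 (fibrillin 2) and FREM2 (a basement membrane protein), each with at most 9 reads in an MCF10A library and 1359 or more reads in each DCIS.COM library.

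In the other direction, ALOX15B, a lipoxygenase that acts on arachidonic acid, had 4907 and 4157 reads in MCF10A and 1 and 2 reads in DCIS.COM. CXCL5, a chemokine that attracts neutrophils, had 3581 and 3195 reads against 2 and 0. Mesothelin (MSLN), a cell surface glycoprotein, had 2322 and 1939 reads in MCF10A and none in DCIS.COM, at least 696-fold higher in MCF10A. JPH2 (junctophilin 2) and RHCG (an ammonium transporter) were also at 0 reads in both DCIS.COM libraries and were at least 399-fold and at least 393-fold higher in MCF10A. The same was true of the histone gene H4C13, with 1472 and 1302 reads in MCF10A, although histone genes are near-identical copies whose reads can be shared among them. S100A8, a calcium-binding protein of stressed epithelium and neutrophils, had 159.5 and 142 CPM against 0.0998 and 0.336 CPM, a log2 difference of -9.15 (SE 0.387). FAM83A, VSTM2L, IFI27, MT1E and CYBA (a subunit of NADPH oxidase) completed the 12, with at most 9 reads in any DCIS.COM library and 1238 or more in each MCF10A library.

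Most of the listed keratins of basal and stratified epithelium were higher in MCF10A, and most of the simple keratins in DCIS.COM. Of 17 keratins of basal and stratified epithelium, 11 were higher in MCF10A (64.7%) and 4 in DCIS.COM (23.5%), with a median log2 difference of -2.35 against -0.00 over all genes. KRT5, the keratin of the basal layer, had 4218 and 4501 CPM in MCF10A and 754 and 674 CPM in DCIS.COM, and was 6.11-fold higher in MCF10A (log2 difference -2.61, SE 0.0853, adjusted p = 8.94e-08). Its partner KRT14 had 1247 and 1299 CPM against 61.5 and 41.3 CPM (log2 difference -4.66). KRT6A, a keratin of activated and wounded epithelium, fell furthest, from 5541 and 5954 CPM in MCF10A to 43.8 and 48.9 CPM in DCIS.COM (log2 difference -6.95, SE 0.0932). KRT17, another basal keratin, was at 3448 and 3797 CPM in MCF10A and 743 and 505 CPM in DCIS.COM. The hair keratin KRT83 was at 23.2 and 33.6 CPM in MCF10A and 1.43 and 1.57 CPM in DCIS.COM. KRT6A and KRT6C, and KRT81 and KRT86, are similar enough for reads to be shared. The members that rose in DCIS.COM were KRT23 (0.0321 and 0.188 CPM against 18 and 19.7 CPM), KRT4, KRT80 and KRT13, and KRT15 did not pass the test.

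Of the 4 simple keratins in the table, 3 were higher in DCIS.COM. KRT8 had 576 and 599 CPM in MCF10A and 3466 and 2583 CPM in DCIS.COM (log2 difference 2.35, SE 0.125, adjusted p = 1.13e-06), and its partner KRT18 had 573 and 598 CPM against 2186 and 1784 CPM (log2 difference 1.76). KRT19 was also higher in DCIS.COM, from 2.63 and 2.93 CPM to 10.5 and 10.8 CPM. KRT7 was higher in MCF10A (log2 difference -0.60) and lost the call under median centring, quantile normalization, a total without structural RNA, or without DCIS.COM library 2. Annotated exons of KRT8 and KRT18, and of KRT7 and KRT86, overlap in part.

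**Figure D2:**
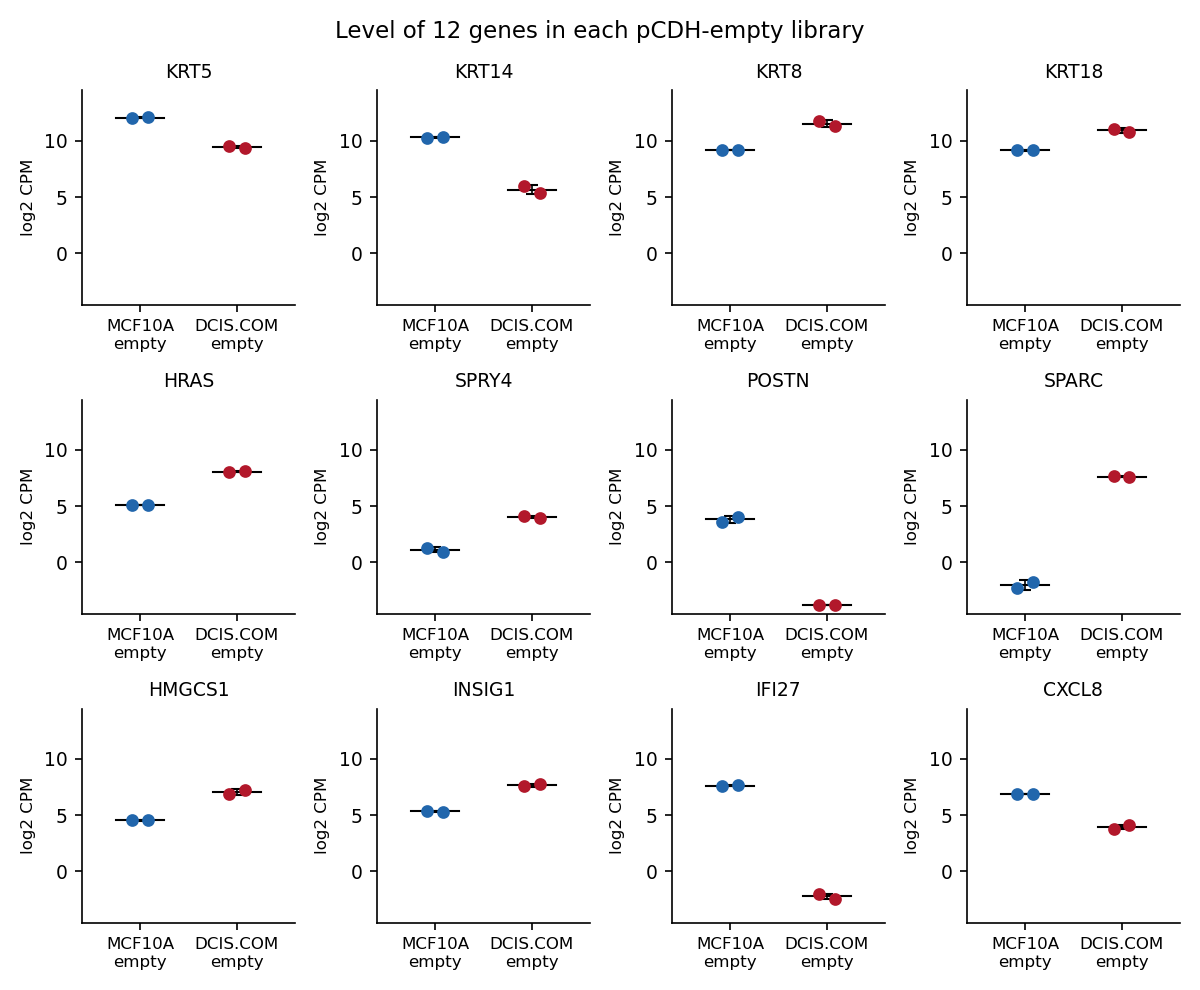
Log2 CPM of 12 genes in each pCDH-empty library (points, blue for MCF10A and red for DCIS.COM), with the mean (horizontal line) and standard deviation (bars) of the 2 libraries of each line. KRT5, KRT14, POSTN, IFI27 and CXCL8 are higher in MCF10A and the other 7 genes higher in DCIS.COM. The 12 genes were picked from those called different, so that the lack of overlap between the lines follows from the choice.

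Further basal and luminal genes went both ways. Of 22 basal or myoepithelial genes, 12 were higher in MCF10A (54.5%) and 7 in DCIS.COM (31.8%). TP63, the master regulator of the basal layer, had 13.9 and 11.8 CPM in MCF10A and 19.4 and 24 CPM in DCIS.COM, so that it was higher in the line with less KRT5 and KRT14 (log2 difference 0.75, SE 0.127, adjusted p = 0.000955). MME, the peptidase CD10 of myoepithelium, was at 187 and 181 CPM in MCF10A and 0.665 and 1.49 CPM in DCIS.COM. Of 24 luminal genes, 15 were higher in DCIS.COM (62.5%) and 5 in MCF10A. PRLR, the prolactin receptor, had 0.257 and 0.150 CPM in MCF10A and 26.8 and 36.8 CPM in DCIS.COM. SPDEF, a luminal ETS factor, rose from 1 and 2 reads to 93 and 132 reads, and PROM1, the surface protein CD133, from 1 and 1 to 162 and 170. EPCAM was 5.03-fold higher in DCIS.COM (log2 difference 2.33, SE 0.0881). The luminal transcription factor GATA3 had 6.09 and 5.67 CPM against 10.5 and 10.6 CPM (log2 difference 0.84), a smaller difference. Luminal genes that fell in DCIS.COM included the mucin MUC1 (22 and 21.2 CPM in MCF10A and 0.266 and 0.410 CPM in DCIS.COM), the surface protein CD24 (1951 and 2006 CPM against 129 and 194 CPM), whose reads can be shared with near-identical copies, and SLPI, a secreted protease inhibitor (384 and 379 CPM against 54.8 and 62 CPM). Among 18 genes used as stem cell or surface markers, 8 were higher in DCIS.COM (44.4%) and 6 in MCF10A (33.3%). CD44, the hyaluronan receptor, was 2.12-fold higher in DCIS.COM (253 and 294 CPM against 620.5 and 538 CPM), in the line with less CD24, and ANPEP, an aminopeptidase, fell from 501 and 495 CPM to 70.0 and 68.9 CPM.

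Genes of the mesenchymal state were mostly lower in DCIS.COM. Of 29 such genes, 21 were higher in MCF10A (72.4%) and 7 in DCIS.COM (24.1%), with a median log2 difference of -1.39. ZEB2, a repressor of E-cadherin, had 521 and 474 reads in MCF10A and 1 and 3 reads in DCIS.COM. SNAI2 (Slug), another repressor of this kind, had 78.7 and 92.8 CPM in MCF10A, and the DCIS.COM libraries were below at 5.65 and 5.48 CPM (log2 difference -3.92, SE 0.126, adjusted p = 8.22e-08; chosen after its value was seen). FN1, which encodes fibronectin, had 1491 and 2569 CPM in MCF10A and 51.9 and 53.2 CPM in DCIS.COM, a log2 difference of -5.22 (SE 0.212). FBN1 (fibrillin 1) fell from 160.5 and 289 CPM to 1.93 and 2.39 CPM, while its relative FBN2 was among the genes that rose furthest. TGFBI, a matrix protein induced by TGF-beta, fell from 979.8 and 1126 CPM to 15.6 and 13.6 CPM, and POSTN (periostin) from 379 and 425 reads to none, at least 133-fold higher in MCF10A. The exceptions that rose were SPARC, CDH11 (at least 49.1-fold), COL6A1 (at least 35.8-fold), the receptor tyrosine kinase AXL (5.07 and 3.91 CPM against 17.4 and 11.2 CPM) and TPM1, together with VIM and TNC. Vimentin (VIM), an intermediate filament of mesenchymal cells, had 182 and 194 CPM in MCF10A and 349.6 and 267 CPM in DCIS.COM (log2 difference 0.70), and this call was lost without DCIS.COM library 1. E-cadherin (CDH1), which joins epithelial cells, had 393 and 458 CPM against 294 and 270.2 CPM (log2 difference -0.59), and lost the call under median centring, a total without structural RNA, thinning, and without MCF10A library 2 or DCIS.COM library 2.

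Genes of epithelial junctions were split near the background, with 8 of 34 higher in DCIS.COM (23.5%) and 10 higher in MCF10A (29.4%). The tight junction genes CLDN4 and OCLN rose, CLDN4 from 21.1 and 20.7 CPM to 90.5 and 117 CPM. Several desmosome genes fell, namely desmoplakin (DSP), the plaque protein that anchors keratins, from 766 and 1087 CPM to 283 and 259 CPM (log2 difference -1.75), DSG3 from 509 and 529 CPM to 156 and 157 CPM, and PERP from 934 and 909 CPM to 242 and 329.5 CPM. Laminin 332, the ligand of the hemidesmosome in the basement membrane, and its receptor chain ITGB4 moved in opposite directions. Of its chains, LAMA3 had 1859 and 2362 CPM in MCF10A and 167 and 149 CPM in DCIS.COM (log2 difference -3.73, SE 0.119, adjusted p = 8.05e-08), and LAMB3 had 1344 and 1528 CPM against 425 and 363 CPM. COL17A1, the transmembrane collagen of the hemidesmosome, fell from 1917 and 2021 CPM to 66.4 and 63.2 CPM. ITGB4, the integrin chain that binds laminin 332, rose instead from 304 and 351 CPM to 1638 and 1288 CPM (log2 difference 2.15, SE 0.119), and ITGA6 did not pass the test. In all, 6 of the 10 genes of this list were higher in MCF10A (60.0%) and 2 in DCIS.COM (20.0%). Of these 2, ITGA3 lost its call without DCIS.COM library 1.

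Among 14 other integrin chains, 8 were higher in MCF10A (57.1%) and 4 in DCIS.COM (28.6%). ITGA5, the fibronectin receptor chain, fell from 359 and 379 CPM to 27.8 and 22.6 CPM (log2 difference -3.88), in the line with less FN1, and ITGA1, a collagen receptor chain, from 39.4 and 44.5 CPM to 1.83 and 2.84 CPM. ITGB3, a chain of the vitronectin receptor, rose from 0.513 and 1.17 CPM to 11.2 and 12.5 CPM. ITGB8 was also called higher in DCIS.COM (log2 difference 0.78), and lost this call without DCIS.COM library 2. Of 22 collagen genes, 12 were higher in MCF10A (54.5%) and 7 in DCIS.COM (31.8%). The basement membrane chains COL4A4 (64.6 and 72.2 CPM against 1.26 and 1.23 CPM) and COL4A6 (82.3 and 90.6 CPM against 3.33 and 3.69 CPM) fell. COL18A1, a basement membrane collagen and the source of endostatin, rose from 3.43 and 2.25 CPM to 58.1 and 60.1 CPM, and the cartilage collagen COL9A3 from 3 and 1 reads to 1088 and 1778 reads, although its partner chain COL9A2 fell from 17.2 and 16 CPM to 0.0998 and 0.522 CPM. Of 39 matrix glycoproteins and proteoglycans, 15 were higher in DCIS.COM (38.5%) and 16 in MCF10A (41.0%). Thrombospondin 1 (THBS1), which binds matrix and activates latent TGF-beta, rose from 139.8 and 206 CPM to 3712 and 2796 CPM (log2 difference 4.24, SE 0.219, adjusted p = 9.21e-07). TNXB (tenascin X) fell from 1436 and 1149 reads to 1 and 1 reads, and part of its reads may belong to the near-identical TNXA.

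Of 29 matrix proteases and their inhibitors, 14 were higher in MCF10A (48.3%) and 9 in DCIS.COM (31.0%). Matrilysin (MMP7), an epithelial metalloproteinase, rose from 1.86 and 2.48 CPM to 59.8 and 73.6 CPM (log2 difference 4.90), and the membrane metalloproteinase MMP16 from 0.513 and 0.489 CPM to 17.7 and 21.7 CPM. MMP28 fell from 116 and 115 CPM to 2.76 and 2.43 CPM. In the plasminogen activator system, urokinase (PLAU) fell from 67.6 and 85 CPM to 4.89 and 5.89 CPM, whereas the tissue-type activator (PLAT, chosen after its value was seen) rose from 42 and 41.6 CPM to 152 and 131 CPM. The inhibitor SERPINB2 fell from 9.30 and 9.09 CPM to 0.200 and 0.0746 CPM, and SERPINE2 rose from 36.2 and 41.6 CPM to 612 and 577 CPM. The tissue factor gene F3, which starts blood clotting and is also counted among YAP targets, fell from 1123 and 1136 CPM to 18.6 and 19.8 CPM (log2 difference -5.88, SE 0.0636, adjusted p = 2.22e-09).

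HRAS, the oncogene with which the DCIS.COM lineage was made, was 7.74-fold higher in DCIS.COM. It had 34.4 and 34.9 CPM in MCF10A and 262 and 274 CPM in DCIS.COM, without overlap (log2 difference 2.95, SE 0.0614, adjusted p = 1.51e-08). Reads from the gene itself and from an introduced copy cannot be told apart in these counts. The other RAS family genes included NRAS (115 and 114 CPM against 52.7 and 75.7 CPM), RRAS (32.7 and 35.2 CPM against 6.52 and 5.56 CPM) and RRAS2, which were higher in MCF10A, and MRAS, which was higher in DCIS.COM. RASGRP1, an exchange factor that loads RAS with GTP, rose from 0.353 and 0.376 CPM to 19.3 and 20.2 CPM, and RASAL1, which returns RAS to its inactive form, from 14.9 and 14.1 CPM to 102 and 90.4 CPM. Over the 26 RAS genes and regulators in the table, 6 were higher in DCIS.COM (23.1%) and 8 in MCF10A (30.8%).

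Genes of ERK output were more often higher in DCIS.COM, 12 of 23 (52.2%) against 4 of 23 higher in MCF10A (17.4%), with a median log2 difference of 0.80. Of the feedback inhibitors of the Sprouty family, 3 rose. SPRY1 had 0.962 and 1.39 CPM in MCF10A and 17.7 and 19 CPM in DCIS.COM (log2 difference 3.90, SE 0.172, adjusted p = 3.82e-07), SPRY4 had 2.37 and 1.84 CPM against 16.8 and 15.6 CPM, and SPRY2 had 12.7 and 12.6 CPM against 69.5 and 65.3 CPM. SPRY3, which was not in the list and was looked up afterward, fell from 40 and 26 reads to 12 and 18 reads. The ETS factor ETV1 rose from 2.50 and 1.95 CPM to 16.9 and 24.6 CPM, and the immediate early factor EGR1 from 0.449 and 0.451 CPM to 4.19 and 4.29 CPM. The phosphatase DUSP6 and the AP-1 subunit FOSL1, also ERK targets, did not pass the test. The members that were higher in MCF10A were EMP1, HMGA2, MYC (242 and 240.2 CPM against 148 and 116 CPM) and cyclin D1 (CCND1, 391 and 408 CPM against 261 and 256 CPM).

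Among the 17 ligands, receptors and regulators of the EGF family, 11 were higher in DCIS.COM (64.7%) and 3 in MCF10A (17.6%). Of the ligands, neuregulin 1 (NRG1) rose from 0.192 and 0.225 CPM to 15.3 and 11.8 CPM (log2 difference 5.59, SE 0.271) and epiregulin (EREG) from 16 and 15 CPM to 89.9 and 132 CPM. Amphiregulin (AREG) fell from 199 and 218 CPM to 31.9 and 30.8 CPM and epigen (EPGN) from 47.2 and 46.6 CPM to 4.26 and 4.51 CPM, so that ligands went both ways. Of the receptors, EGFR fell from 102 and 128 CPM to 46.9 and 36.7 CPM (log2 difference -1.46). The receptor inhibitors LRIG1 (1.44 and 1.43 CPM against 51.1 and 49.1 CPM) and ERRFI1 (89.7 and 84.9 CPM against 359 and 376 CPM) rose. AP-1 subunits, which act downstream of ERK and of stress kinases, were mostly lower in DCIS.COM, with 8 of 14 higher in MCF10A (57.1%) and 3 higher in DCIS.COM. JUN fell from 86.2 and 104 CPM to 8.15 and 7.05 CPM (log2 difference -3.63), FOS from 13.4 and 13.9 CPM to 1.36 and 1.60 CPM, and FOSL2 from 228 and 224 CPM to 28.1 and 22.3 CPM. The related factor MAF rose from 0.609 and 0.564 CPM to 4.36 and 6.57 CPM.

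Gene groups that answer to the supplements of the MCF10A medium were examined next, since only MCF10A cells received hydrocortisone, cholera toxin, insulin and EGF. Of 28 glucocorticoid targets, 18 were higher in MCF10A (64.3%) and 3 in DCIS.COM (10.7%), with a median log2 difference of -1.91. FKBP5, a chaperone of the glucocorticoid receptor and one of its best known targets, had 579 and 631 CPM in MCF10A and 33.7 and 31.7 CPM in DCIS.COM (log2 difference -4.21, SE 0.0706, adjusted p = 6.02e-09; FKBP5 and TSC22D3 were chosen after their values were seen). TSC22D3, which encodes GILZ, had 108 and 105 CPM against 4.89 and 6.45 CPM, and the clock gene PER1 had 40.0 and 43 CPM against 5.89 and 5.67 CPM. The zinc finger factor ZBTB16 had 428 and 358 reads in MCF10A and none in DCIS.COM, at least 128-fold higher in MCF10A. The 3 that rose in DCIS.COM were PDK4 (2.31 and 2.18 CPM against 23.5 and 26.8 CPM), ERRFI1 and CNKSR3. NR3C1, the glucocorticoid receptor itself, had 132 and 135 CPM against 99.5 and 110.0 CPM and was not called. Of 22 cyclic AMP targets, 9 were higher in MCF10A (40.9%) and 5 in DCIS.COM (22.7%). The phosphatase DUSP1 fell from 146 and 133 CPM to 5.79 and 3.99 CPM and RGS2 from 19.3 and 19.1 CPM to 1.90 and 2.57 CPM, while PPARGC1A rose from 0.481 and 0.301 CPM to 23.4 and 23.7 CPM and the nuclear receptor NR4A1 from 0.545 and 0.526 CPM to 14.2 and 12.1 CPM. Of 10 genes of insulin and IGF signaling, 2 were higher in DCIS.COM (IGFBP2, from 2 and 1 to 798 and 699 reads, and IGFBP5) and 3 in MCF10A (IGFBP6, from 89.3 and 93.1 CPM to 4.39 and 4.48 CPM, IGFBP4 and IRS1). The first of these counts was 4 without MCF10A library 2.

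Most genes of sterol and fatty acid synthesis were higher in DCIS.COM. Of 32 genes, 25 were higher in DCIS.COM (78.1%) and 0 in MCF10A by limma, with a median log2 difference of 1.21, and 1 was lower in DCIS.COM at an unadjusted p under 0.05 (0 by limma-voom). HMGCS1, which makes the precursor of mevalonate, had 23.4 and 22.9 CPM in MCF10A and 115 and 148 CPM in DCIS.COM (log2 difference 2.49, SE 0.114, adjusted p = 4.6e-07). INSIG1, a sensor that holds back the transcription factors of this pathway, had 41.2 and 39.6 CPM against 189.6 and 218 CPM. DHCR7, which completes cholesterol, rose from 40.7 and 42.5 CPM to 203 and 164 CPM, and fatty acid synthase (FASN) from 166 and 186 CPM to 1199 and 1044 CPM (log2 difference 2.67). TM7SF2, a sterol reductase, rose from 1.41 and 1.95 CPM to 13.5 and 13.5 CPM. The 7 genes that did not pass the test included LSS, MSMO1 and the master regulator SREBF2, and had log2 differences between -0.29 (FADS1) and 0.46 (ACACA).

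Cell cycle genes were also one-sided, but by smaller amounts. Of 48, 25 were higher in DCIS.COM (52.1%) and 0 in MCF10A by limma, where 1 had an unadjusted p under 0.05 and limma-voom called 0, with a median log2 difference of 0.64. Without MCF10A library 2 or DCIS.COM library 1, 1 member was higher in MCF10A. MCM2, a helicase subunit loaded at replication origins, had 125 and 121 CPM in MCF10A and 406 and 316 CPM in DCIS.COM (log2 difference 1.54, SE 0.108). The proliferation marker MKI67 had 99.3 and 151 CPM against 278 and 267 CPM (log2 difference 1.15, SE 0.170, adjusted p = 0.000457), and the MCF10A libraries were further apart for it than the DCIS.COM libraries. The mitotic kinesin KIF20A rose from 112 and 107 CPM to 269.8 and 241 CPM. A list of 12 genes held D-type cyclins, their kinases, inhibitors of cyclin-dependent kinases and pocket proteins, which hold back the cycle. Of these 12, 4 were higher in DCIS.COM (33.3%) and 3 in MCF10A (25.0%). The D-type cyclins, which start the cycle with CDK4 and CDK6, went in different directions. CCND2 had no read in MCF10A and 516 and 436 reads in DCIS.COM, at least 160.0-fold higher, whereas CCND1 and CCND3 (102 and 107 CPM against 51 and 38.2 CPM) fell. CDK6 rose from 146 and 168 CPM to 286 and 392 CPM, and the call of CDK4 (log2 difference 0.60) was lost without MCF10A library 1 or DCIS.COM library 1. Of 26 targets of p53, 13 were higher in MCF10A (50%) and 1 in DCIS.COM, which became 2 without MCF10A library 1 or DCIS.COM library 2 (BTG2, 10.1 and 10.1 CPM against 19.1 and 19 CPM). TP53I3, an oxidoreductase induced by p53, fell from 290.5 and 286 CPM to 29.1 and 27.6 CPM (log2 difference -3.35, SE 0.0629), the death receptor FAS from 76.9 and 69.1 CPM to 16.8 and 18.7 CPM, and the ribonucleotide reductase subunit RRM2B from 131 and 137 CPM to 28.9 and 50.6 CPM. CDKN1A, the p53 target that inhibits cyclin-dependent kinases, did not pass the test.

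Interferon-stimulated genes were lower in DCIS.COM. Of 41, 30 were higher in MCF10A (73.2%) and 3 in DCIS.COM (7.32%), with a median log2 difference of -1.25, and the same list had a median of -0.88 in the pCDH-HOTAIR libraries. IFI27 had 193 and 202 CPM in MCF10A and 0.166 and 0.112 CPM in DCIS.COM (log2 difference -9.88, SE 0.225, adjusted p = 2.18e-08). IFI44L had 42.4 and 37.9 CPM against 0.233 and 0.224 CPM, and IFI6, a mitochondrial protein that blocks cell death, had 109 and 106 CPM against 2.33 and 2.57 CPM. TRIM22, an antiviral ubiquitin ligase, fell from 86.6 and 86.8 CPM to 2.79 and 3.06 CPM. IFIT1, which binds viral RNA, fell from 28.5 and 18.8 CPM to 1.16 and 1.42 CPM, ISG15, a ubiquitin-like modifier, from 20.8 and 17.7 CPM to 3.23 and 3.73 CPM, and the signal transducer IRF9 from 27.3 and 27.1 CPM to 3.69 and 4.48 CPM (IFIT1, ISG15 and IRF9 were chosen after their values were seen). The exceptions that rose were BST2, which tethers virions to the cell (9.59 and 10.5 CPM against 89 and 119 CPM), ISG20, an exonuclease (3.53 and 3.83 CPM against 16.9 and 14.4 CPM), and IFITM1, which blocks viral entry (9.59 and 9.21 CPM against 19.7 and 16.3 CPM).

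Interferon acts on these genes through a promoter element, the ISRE. GAAA followed by any 2 bases and a second GAAA was searched on either strand of the 250 bases before the start of each gene, in RefSeq promoters of GRCh38.p14 that matched 10679 genes. This pattern occurred in 20 of the 31 promoters of the list (64.5%) against 248 of all 10679 (2.32%). Within the list it occurred in 14 of the 23 promoters of genes higher in MCF10A (60.9%) and in 6 of the 8 of other members (75%). The promoters of 3 of the genes named above were picked to show the pattern. Each held 2 matches, given in capitals, which overlap in ISG15. They do not stand for the whole list, in which 20 of 31 promoters had any match. The sequences read 5′ to 3′ toward the gene and lie at chr1:1013247-1013496 (ISG15), chr10:89392373-89392622 (IFIT1) and chr14:94110486-94110735 (IFI27), all on the plus strand.
ISG15: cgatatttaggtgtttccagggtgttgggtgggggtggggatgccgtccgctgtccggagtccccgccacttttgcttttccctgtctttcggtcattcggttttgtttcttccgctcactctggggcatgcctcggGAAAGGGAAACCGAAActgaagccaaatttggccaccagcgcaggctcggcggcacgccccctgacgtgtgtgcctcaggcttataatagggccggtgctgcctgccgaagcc
IFIT1: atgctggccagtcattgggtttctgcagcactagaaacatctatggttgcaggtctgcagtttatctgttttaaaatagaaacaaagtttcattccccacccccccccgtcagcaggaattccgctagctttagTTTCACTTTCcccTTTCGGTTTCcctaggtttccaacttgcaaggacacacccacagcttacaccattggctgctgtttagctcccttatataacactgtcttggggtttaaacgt
IFI27: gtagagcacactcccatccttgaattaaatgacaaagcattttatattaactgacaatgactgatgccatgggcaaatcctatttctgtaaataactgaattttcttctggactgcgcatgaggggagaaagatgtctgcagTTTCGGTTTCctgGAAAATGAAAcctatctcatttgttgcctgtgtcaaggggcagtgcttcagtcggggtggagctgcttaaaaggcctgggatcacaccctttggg
Among all promoters, the share with a match was 2.76% for the genes higher in MCF10A, 2.15% for those higher in DCIS.COM and 2.21% for the rest. A match describes the letters and does not show that a factor was bound.

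Of 19 genes of antigen presentation, 11 were higher in MCF10A (57.9%) and 2 in DCIS.COM (10.5%). The peptide transporter TAP1 fell from 55.2 and 53.6 CPM to 27.7 and 21.6 CPM (log2 difference -1.15, SE 0.117). The class I gene HLA-B was not called, and class I genes are similar enough for reads to be shared among them. CD74, the invariant chain of class II molecules, rose from 0.513 and 0.489 CPM to 24 and 23.1 CPM, while CIITA, the activator of class II genes, fell from 1.32 and 1.5 CPM to 0.133 and 0 CPM. Cytokines, chemokines and acute phase genes fell as well, with 20 of 29 higher in MCF10A (69.0%) and 4 in DCIS.COM (13.8%), and a median log2 difference of -2.64. The acute phase gene SAA1 had 163 and 172 CPM in MCF10A and 1.23 and 2.09 CPM in DCIS.COM, and its reads can be shared with SAA2. Complement factor B (CFB) had 299 and 289 CPM against 3.26 and 3.10 CPM (log2 difference -6.50, SE 0.0889, adjusted p = 2.77e-09). The colony-stimulating factor CSF3 had 118 and 81 reads in MCF10A and none in DCIS.COM, at least 32.3-fold higher in MCF10A. CXCL8 (interleukin 8) fell from 119 and 120.3 CPM to 13.9 and 17.1 CPM. Leukemia inhibitory factor (LIF) went the other way, from 6.83 and 6.61 CPM to 164 and 169 CPM (log2 difference 4.61, SE 0.0728), as did the membrane-bound chemokine CX3CL1, from 1 and 3 to 375 and 345 reads.

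Of 39 genes of epidermal differentiation, 22 were higher in MCF10A (56.4%) and 8 in DCIS.COM (20.5%). Transglutaminase 1 (TGM1, chosen after its value was seen), which crosslinks the cornified envelope, fell from 79.8 and 77.2 CPM to 1.73 and 1.34 CPM (log2 difference -5.62). The kallikrein proteases, neighbors on chromosome 19, split. KLK7 fell from 21.3 and 23.9 CPM to 0.166 and 0.0746 CPM and KLK8 from 129 and 99 reads to none, whereas KLK6 rose from 0.706 and 0.601 CPM to 20.1 and 16 CPM, KLK10 from 1.32 and 1.28 CPM to 22.1 and 15.5 CPM and KLK5 from 46.8 and 45.3 CPM to 188 and 149.8 CPM. The S100 genes split too. S100A8 fell while S100A2, a calcium-binding protein of basal epithelium, rose from 546 and 579 CPM to 2553 and 3359 CPM (log2 difference 2.38, SE 0.121).

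Components of developmental signaling were compared from lists of each pathway. In the Notch pathway, 10 of 17 genes were higher in DCIS.COM (58.8%) and 1 in MCF10A (5.88%). The receptor NOTCH1 had 19.4 and 22.1 CPM in MCF10A and 100.1 and 78.9 CPM in DCIS.COM (log2 difference 2.10, SE 0.124, adjusted p = 2.03e-06). The ligand DLL1 rose from 1 and 0 reads to 54 and 47 reads, and the target and feedback inhibitor NRARP from 0.417 and 0.413 CPM to 5.99 and 5 CPM. The target HES1 did not pass the test, and HES2 was the member that fell (5.16 and 6.46 CPM against 2.69 and 1.94 CPM). In the FGF family, 7 of 10 genes were higher in DCIS.COM (70.0%) and 1 in MCF10A, or 2 without MCF10A library 1 or DCIS.COM library 1. The receptor FGFR2 had 3 and 2 reads in MCF10A and 1008 and 826 reads in DCIS.COM, and FGFR4 had 0.128 and 0.188 CPM against 5.42 and 3.99 CPM. The ligand FGF1 rose from 0.0962 and 0.263 CPM to 4.26 and 4.59 CPM, and FGF11 fell.

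In the Wnt pathway, 12 of 26 genes were higher in DCIS.COM (46.2%) and 5 in MCF10A (19.2%). All 5 of those higher in MCF10A were ligands or a secreted inhibitor, the ligands WNT5A (52.5 and 61.8 CPM against 0.698 and 1.08 CPM, log2 difference -5.92), WNT7A, WNT10A and WNT7B and the inhibitor DKK1 (166 and 159 CPM against 29.1 and 25.1 CPM). Of the 12 that were higher in DCIS.COM, the receptor FZD7 rose from 2.85 and 3.04 CPM to 61.2 and 56.9 CPM (log2 difference 4.29, SE 0.106), and the transcription factor LEF1 from no read to 109 and 86 reads, at least 32.7-fold higher. Of 36 genes of TGF-beta and BMP signaling, 13 were higher in MCF10A (36.1%) and 10 in DCIS.COM (27.8%). BMP7 rose from 0.738 and 0.902 CPM to 14.9 and 12.1 CPM and the activin antagonist follistatin (FST) from 0.0962 and 0.188 CPM to 6.32 and 5.60 CPM, while BMP2 fell from 49.7 and 45.4 CPM to 4.66 and 4.51 CPM and the procollagen protease BMP1 from 154 and 170.2 CPM to 11.3 and 12.9 CPM. The receptor TGFBR2 fell from 464 and 480.5 CPM to 118 and 113 CPM (chosen after its value was seen). Among 26 targets and partners of YAP, the effector of the Hippo pathway, 8 were higher in DCIS.COM (30.8%) and 10 in MCF10A (38.5%). The coactivators themselves diverged, with YAP1 at 187 and 196 CPM against 86.4 and 105 CPM (log2 difference -1.01) and WWTR1 (TAZ) at 40.6 and 42 CPM against 335 and 395 CPM (log2 difference 3.14; YAP1 was chosen after its value was seen).

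Of 27 targets of the oxidative stress factor NRF2, 11 were higher in DCIS.COM (40.7%) and 7 in MCF10A (25.9%). The quinone reductase NQO1 rose from 131 and 131 CPM to 581 and 596 CPM (log2 difference 2.17, SE 0.0548) and the ketosteroid reductase AKR1C1 from 75.8 and 60.8 CPM to 650.4 and 589 CPM, with reads that can be shared among near-identical AKR1C genes. The aldose reductase AKR1B1 fell from 885 and 857 CPM to 68 and 61.8 CPM. Of 32 hypoxia-responsive genes, 15 were higher in MCF10A (46.9%) and 4 in DCIS.COM (12.5%). The prolyl hydroxylase EGLN3 fell from 35.4 and 38.6 CPM to 4.76 and 6.38 CPM, the stress protein NDRG1 from 160.4 and 164 CPM to 36.9 and 35.2 CPM, and the angiogenic factor VEGFA from 238 and 237 CPM to 79.5 and 80.7 CPM, while hexokinase 2 (HK2) rose from 65.8 and 73.4 CPM to 249 and 259 CPM. Genes of small structural RNAs had 3 of 22 members called higher in DCIS.COM and 0 in MCF10A (1 at an unadjusted p under 0.05, 0 by limma-voom). The 3 were SNORD3B-1, SNORD3B-2 and RNU2-2P. None of them was called without DCIS.COM library 1 or without MCF10A library 2, 1 member was called without MCF10A library 1, and 8 were called without DCIS.COM library 2. SNORD3B-1 and SNORD3B-2 also lost their call without DCIS.COM library 2, without MCF10A library 1, under quantile normalization, without the trend and with the replicate block, and SNORD3B-2 after thinning. None of 32 germline antigens looked for was in the table.

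In the HOX clusters, which keep a record of body position, 9 of 20 genes were higher in MCF10A (45.0%) and 5 in DCIS.COM (25.0%). The neighboring genes HOXA2, HOXA3, HOXA4 and HOXA5 fell, although annotated exons of some of them overlap. HOXA5 had 41 and 40.6 CPM in MCF10A and 7.25 and 7.46 CPM in DCIS.COM (log2 difference -2.46, SE 0.0796), HOXA2 had 2.79 and 2.63 CPM against 0.399 and 0.336 CPM, and the noncoding neighbor HOTAIRM1 had 19.5 and 14.4 CPM against 2.16 and 3.69 CPM. In the HOXC cluster, HOXC13 rose from 4.75 and 4.59 CPM to 24.1 and 17.9 CPM and HOXC11 from 2.21 and 2.29 CPM to 8.65 and 5.97 CPM. HOTAIR, which lies between them on the opposite strand, had 45 and 40 reads in MCF10A and 119 and 140 reads in DCIS.COM without any HOTAIR vector (log2 difference 1.58, SE 0.125, adjusted p = 1.08e-05). HOTAIR and HOXC11 overlap on opposite strands, no source says whether strand was used in counting, and reads of one may have been counted for the other. In the pCDH-HOTAIR libraries, HOTAIR had 4614 and 4827 reads in MCF10A and 7166 and 6385 reads in DCIS.COM. These libraries differed in depth, with 19306864 and 19675113 reads in all in MCF10A and 34884841 and 32770295 in DCIS.COM. On the log2 CPM scale, HOTAIR was lower in DCIS.COM there (log2 difference -0.29). Reads of the insert and of the cell's own gene are counted together in this value. Of 16 protocadherins, most of them from the gene clusters that give neurons their surface identity, 9 were higher in DCIS.COM (56.2%), led by PCDHB4 (0.289 and 0.0752 CPM against 5.26 and 6.75 CPM). PCDH9, which lies outside the clusters, was higher in MCF10A, and without MCF10A library 2 it was joined by 1 more.

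The difference between the lines also had a genomic pattern. With positions for 13267 genes in GENCODE release 44 on GRCh37 (hg19, the build of the alignment), the median log2 difference of a chromosome ran from -0.283 (chromosome 18, 194 genes) to 0.261 (chromosome 17, 790 genes). On chromosome 17, 30.9% of genes were higher in DCIS.COM and 16.2% in MCF10A, and on chromosome 1 the shares were 32.9% and 19.6%. On chromosome 8, 34.5% were higher in MCF10A and 16% in DCIS.COM. Over all chromosomes, these medians differed by at most 0.133 from those in the pCDH-HOTAIR libraries. Copy number was not measured.

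Runs of at least 8 neighboring genes called in the same direction were found at 12 places. The longest was a run of 14 zinc finger genes from ZNF823 to ZNF709 at chr19:11832080-12624668, all higher in MCF10A, with a median log2 difference of -5.73, or -5.22 when genes at 0 reads in DCIS.COM are set to their bound. Genes of this family encode DNA-binding repressors, many of which silence transposable elements. ZNF440 had 261 and 199 reads in MCF10A and none in DCIS.COM, at least 74.9-fold higher in MCF10A, and ZNF44 had 154 and 126 reads and none. A further run of 13 genes with ZNF symbols, from ZNF528 to ZNF816, lay at chr19:52901102-53466164 (median log2 difference -2.26). Chromosome 19 held 194 protein-coding genes whose symbol starts with ZNF. Of these, 76 were higher in MCF10A (39.2%) and 28 in DCIS.COM (14.4%), and 30 had at most 3 reads in each DCIS.COM library. The 723 other genes of the chromosome went the other way, with 15.9% higher in MCF10A and 32.0% higher in DCIS.COM. They include genes with ZNF symbols that are not protein-coding, such as ZNF137P and ZNF321P of the run above. Of these 723, 9 had at most 3 reads in each DCIS.COM library. The 216 ZNF genes on other chromosomes were near the background, at 19% and 17.1%, and 4 had at most 3 reads in each DCIS.COM library. The ZNF sets were drawn after values had been seen, and are a description.

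**Figure D3:**
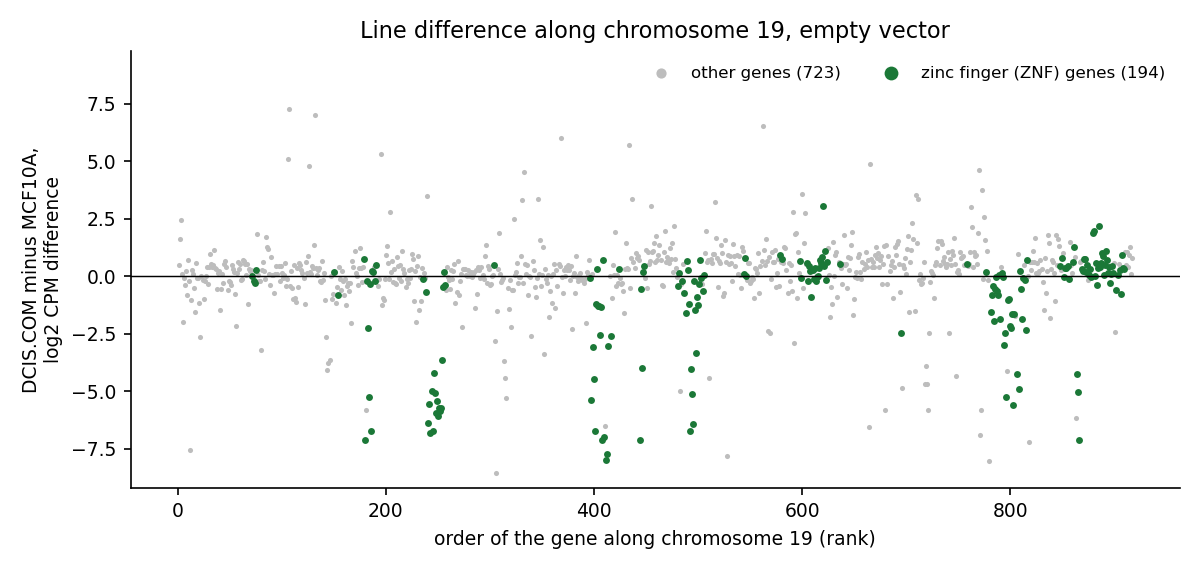
Log2 CPM difference (DCIS.COM minus MCF10A, empty vector, y axis) of 917 genes of chromosome 19 in their order along the chromosome (x axis, rank). Green points are the 194 protein-coding ZNF genes and grey points the 723 others. ZNF genes form separate groups that reach -8, while most other genes lie near or above 0.

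Other runs higher in MCF10A held gene families named above. The metallothionein run on chromosome 16 (BBS2 to MT1X, chr16:56499552-56718108, 8 genes) had a median log2 difference of -4.80, or -4.49 at the bound. These small proteins bind zinc and copper and answer to metals and glucocorticoids. MT2A had 442 and 461 CPM in MCF10A and 16.3 and 16.2 CPM in DCIS.COM (log2 difference -4.79), and MT1X had 105 and 111 CPM against 0.898 and 0.858 CPM, with reads that the MT1 genes can share. The chemokine run on chromosome 4 (CXCL8 to CXCL2, chr4:74606236-74964913, 8 genes) had a median of -4.04, or -3.63 at the bound, and the serpin run on chromosome 18 (KDSR to SERPINB8, chr18:60994959-61687013, 8 genes) a median of -3.70. In the latter, KDSR lost its call under quantile normalization, and maspin (SERPINB5), a serpin of mammary epithelium, fell from 863 and 888 CPM to 157 and 164 CPM. A run of HLA genes on chromosome 6 (GABBR1 to HLA-J, 8 genes) had a median of -1.73, and its members GABBR1, HLA-G and HLA-J lost their call under a pseudocount of 1, GABBR1 and HLA-G also without MCF10A library 2, and GABBR1 also without DCIS.COM library 1, in a fit of the pCDH-empty libraries alone and after thinning to the smallest library.

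Higher in DCIS.COM were 6 runs. On chromosome 22, 9 genes from NPTXR to PDGFB (chr22:39214457-39640987) included 5 cytidine deaminases of the APOBEC3 family, which edit viral DNA and can mutate the cell's own, and had a median log2 difference of 2.61. APOBEC3B rose from 0.994 and 0.940 CPM to 26.1 and 20.2 CPM (log2 difference 4.47, SE 0.167), with reads that near-identical family members can share. A histone run on chromosome 1 (H2BC18 to SF3B4, chr1:149754245-149899695, 12 genes) had a median of 1.46. Reads of such near-identical copies can be shared, and values were uneven between the DCIS.COM libraries, with H2BC21 at 147 and 137 CPM in MCF10A and 527 and 309 CPM in DCIS.COM. H4C13 on chromosome 6 was at 0 reads in DCIS.COM, as described above. Another 3 runs on chromosome 1 (CLSTN1 to PEX14 with 10 genes, PADI3 to SLC66A1 with 12 and SLC25A44 to CCT3 with 8) and a run on chromosome 19 (DMKN to U2AF1L4, 11 genes) had medians of 1.04 to 1.33, and in the last of these runs RBM42 and U2AF1L4 lost their call without DCIS.COM library 1, as RBM42 did without MCF10A library 1 and U2AF1L4 under a pseudocount of 1.

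Genes read in one line only were counted with a fixed rule, at most 3 reads in each library of one line and at least 5 CPM in each library of the other. By this rule 88 genes were missing from DCIS.COM, of which 42 had no read in either library and 18 lay on chromosome 19, and 96 were missing from MCF10A, of which 37 had no read and 1 lay on chromosome 19. Of all 13267 genes with a position, 917 lay on chromosome 19. In the pCDH-HOTAIR libraries, 76 of the 88 and 87 of the 96 again had at most 3 reads in each library of the line that lacked them. The genes named in this paragraph were chosen after their values were seen. Among those missing from DCIS.COM were CHFR, a checkpoint ubiquitin ligase, with 819 and 648 reads in MCF10A and none in DCIS.COM (at least 239-fold higher in MCF10A), MGMT, which repairs alkylated DNA, with 369 and 304 reads and none (at least 110-fold), and emerin (EMD), a protein of the nuclear envelope encoded on the X chromosome, with 650 and 572 reads and none. The genes ARMCX2, ARMCX3 and ARMCX6 of the X chromosome had at most 1 read in a DCIS.COM library and between 157 and 1151 reads in the MCF10A libraries. Among those missing from MCF10A were MPDZ, a scaffold of cell junctions, with 935 and 827 reads in DCIS.COM (at least 296-fold higher), EPHB1, an ephrin receptor, with 942 and 733 reads (at least 281-fold), and SEMA3D, a secreted guidance cue, with 628 and 807 reads (at least 244-fold).

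The promoters of these genes were compared by content of CG dinucleotides, the site of DNA methylation in human cells. Methylation was not measured here, and whether promoter content bears on the missing reads was not tested. A promoter was called CG-rich when its 250 bases had at least 50% G and C and a ratio of observed to expected CG of at least 0.6. This held for 8102 of 10679 promoters (75.9%), for 23 of 56 promoters of genes missing from DCIS.COM (41.1%) and for 44 of 73 of genes missing from MCF10A (60.3%). For genes of chromosome 19 with a ZNF symbol, here without a filter on gene type, it held for 39 of 65 that were higher in MCF10A (60.0%). It held for 88 of 109 that were not (80.7%). Over all genes it held for 69.1% of those higher in MCF10A, 70.4% of those higher in DCIS.COM and 80.9% of those not called. The promoters of ZNF440 and ZNF823, from the run of 14, and of CHFR are shown with each CG in capitals, 12, 14 and 28 in number, to let their density be compared. They lie at chr19:11814023-11814272 (plus strand), chr19:11738947-11739196 (minus strand) and chr12:132887606-132887855 (minus strand) of GRCh38.p14 and read 5′ to 3′ toward the gene.
ZNF440: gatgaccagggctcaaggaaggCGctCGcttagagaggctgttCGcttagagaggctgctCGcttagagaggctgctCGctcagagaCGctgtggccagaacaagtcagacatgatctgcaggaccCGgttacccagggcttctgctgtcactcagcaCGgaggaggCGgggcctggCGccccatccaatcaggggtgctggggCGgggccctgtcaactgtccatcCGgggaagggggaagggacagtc
ZNF823: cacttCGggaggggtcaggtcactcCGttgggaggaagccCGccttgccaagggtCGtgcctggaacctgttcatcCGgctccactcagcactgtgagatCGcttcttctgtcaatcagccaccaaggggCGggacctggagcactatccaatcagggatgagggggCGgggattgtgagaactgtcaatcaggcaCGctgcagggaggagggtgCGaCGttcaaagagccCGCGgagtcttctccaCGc
CHFR: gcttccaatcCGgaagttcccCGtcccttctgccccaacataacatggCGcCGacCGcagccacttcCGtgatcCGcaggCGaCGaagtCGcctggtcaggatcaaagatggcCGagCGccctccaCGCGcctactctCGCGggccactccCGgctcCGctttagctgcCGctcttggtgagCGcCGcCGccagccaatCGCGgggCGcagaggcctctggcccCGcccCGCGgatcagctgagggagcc
CHFR had the densest promoter of the 3, and ZNF823 had 208 and 207 reads in MCF10A against 0 and 1 in DCIS.COM.

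The line difference was similar in the libraries that carried pCDH-HOTAIR, which come from other transductions of the same lines and share no library with the comparison above. Of the 3095 genes called higher in DCIS.COM, 3075 had the same sign there and 2609 (84.3%) also differed by at least 1.5-fold. Of the 3275 called higher in MCF10A, 3263 had the same sign and 2722 (83.1%) also differed by at least 1.5-fold. Among all 13771 genes, called or not, 12215 had the same sign and 6118 (44.4%) also differed by at least 1.5-fold. Over all 13771 genes the log2 differences under the 2 vectors had a Pearson r of 0.980, which describes genes that share the same cell lines and is not a test over samples. KRT5 differed by -2.36 on the log2 scale in the pCDH-HOTAIR libraries, HRAS by 2.90, FN1 by -6.08, HMGCS1 by 2.89 and IFI27 by -8.74, each with the sign it had with the empty vector. The difference between the vectors was tested as an interaction in limma and passed at an adjusted p under 0.05 for 6 genes (0.0436% of 13771). All 6 calls were lost in a fit without the mean-variance trend (0 genes, 1414 at an unadjusted p under 0.05) and in a fit with the replicate number as a block (0 genes, 1342). The count also rested on single libraries, since it was 0 without either MCF10A library (867 and 1004 genes at an unadjusted p under 0.05), 89 without DCIS.COM library 1 and 4414 without DCIS.COM library 2, while limma-voom called 5.

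**Figure D4:**
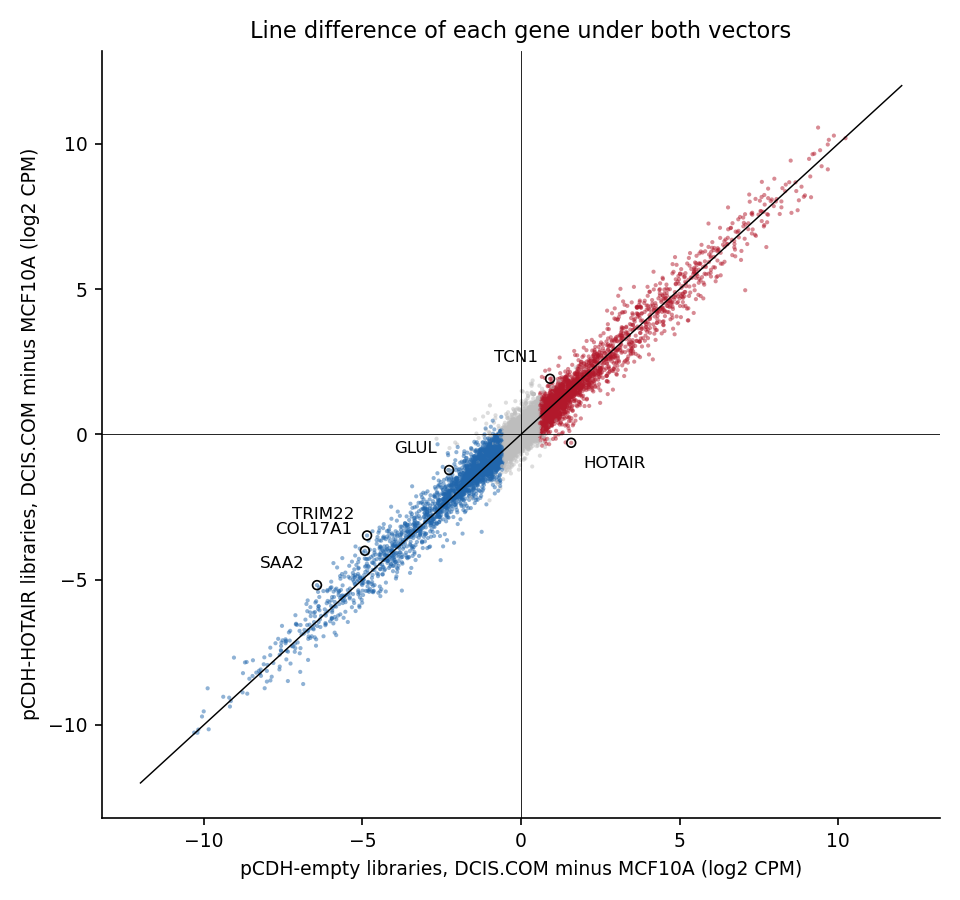
Log2 CPM difference between the lines (DCIS.COM minus MCF10A) of each gene in the pCDH-empty libraries (x axis) and in the pCDH-HOTAIR libraries (y axis), with the line of equality. Colors are the calls with the empty vector (red higher in DCIS.COM, blue higher in MCF10A, grey not called). The 6 circled genes differed between the vectors, and the other points follow the diagonal with r of 0.980.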

How the data were processed

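RNA from subconfluent plates of MCF10A and DCIS.COM cells, each stably carrying pCDH-empty or pCDH-HOTAIR, was sequenced as paired-end ScriptSeq libraries, 2 per group and 8 in all. The authors aligned reads to hg19 with Rsubread, counted them over UCSC known genes with featureCounts and used edgeR. Tool versions and the use of strand in counting are not given in the sources used here. The deposited values are log2 CPM per gene, scaled between libraries with a prior of 0.0717 CPM, for genes above 0.5 CPM in at least 2 libraries (13771 genes, 343 without a symbol). Whole reads were recovered from every value within a tolerance of 0.02, so that counts, depths of 19306864 to 34884841 reads and CPM could be given. At this depth 3 reads, the floor used for lower bounds, are about 0.1 CPM, and bounds cover counting error only.

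The deposited log2 CPM were fitted with limma 3.58.1 in R 4.3.3 with 1 mean per group and a trend of variance on level, which leaves 4 residual degrees of freedom shared by all groups. The contrast was DCIS.COM pCDH-empty minus MCF10A pCDH-empty, called at a Benjamini-Hochberg adjusted p under 0.05 over all 13771 genes and a fold change of at least 1.5. With 2 libraries against 2, an exact permutation test of 1 value cannot go below p = 0.333, and none was run. On simulated data with 200 changed genes among 13771, this fit called 82.3% of 2-fold and 98.3% of 4-fold changes, with 2.58% false calls over 10 simulations. The simulated spread was capped and independent between genes, and changed genes were drawn from those above a minimum level in MCF10A. A library that deviates in many genes together, as DCIS.COM library 1 did, was not simulated. These rates therefore do not give the error or power of the calls reported here. Summaries used Python 3.11.15, numpy 2.4.6, pandas 2.3.3, scipy 1.17.1 and matplotlib 3.10.9. Gene positions came from GENCODE release 44 on GRCh37 (13267 genes, 96.3%), and promoters from RefSeq on GRCh38.p14.

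Genes were named by rule, namely the 12 largest differences in each direction, up to 5 called members of each of 41 gene lists in each direction, defining genes of a list, genes of runs, the 5 genes with the most reads in each line, HOTAIR, and the 5 genes with the smallest interaction p-value. Others are said to have been chosen after their values were seen. Members and lists were chosen with earlier results of these data known. Alternatives were another pseudocount, a low-value filter, other scalings, no trend, no fold or a larger fold threshold, the empty libraries alone, a replicate block, limma-voom on recovered reads, thinned reads and leaving out each library.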

Additional observations from a re-analysis of the deposited data

Results flagged for a closer look

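The line difference itself differed between the vectors for 6 genes, by the interaction in limma at an adjusted p under 0.05, where positive values mean a higher DCIS.COM to MCF10A difference in the pCDH-HOTAIR libraries. For TRIM22, an antiviral ubiquitin ligase, the difference moved by 1.37 (SE 0.117, adjusted p = 0.0208), from -4.86 with the empty vector to -3.48, so that it was lower in DCIS.COM under either vector. COL17A1, the hemidesmosome collagen, moved by 0.917 (SE 0.0888), from -4.92 to -4.01. GLUL, which makes glutamine, moved by 1.04, from -2.27 to -1.23, and SAA2, an acute phase gene that can share reads with SAA1, by 1.24 (adjusted p = 0.0385), from -6.44 to -5.19. For TCN1, which encodes a vitamin B12 carrier, the difference moved by 0.997, from 0.91 to 1.91. HOTAIR, the vector's insert, moved by -1.87 (SE 0.176), from 1.58 with the empty vector to -0.29 with the insert. Reads of the insert and of the cell's own gene are counted together, so that the second value does not describe the cell's own HOTAIR. Only HOTAIR changed sign among the 6. All 6 calls were lost without the mean-variance trend and with the replicate block (0 genes in either fit), and how many genes pass depends on single libraries, as given in the report, and the part of DCIS.COM library 1 in these values was not tested gene by gene.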

How the results depend on the processing

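Without a fold threshold, 4650 genes were higher in DCIS.COM and 4744 in MCF10A, against 3095 and 3275 at 1.5-fold, 1836 and 2035 at 2-fold and 801 and 973 at 4-fold. Under the other alternatives the counts ran from 2575 to 3300 and from 2821 to 3641, the ends of these ranges being the filter at a mean of 2 CPM (12222 genes tested) and the fits without DCIS.COM library 2, and 47.5% to 51.8% of calls were higher in DCIS.COM. No scaling moved the median of all genes by more than 0.0468 on the log2 scale. Of 417 named and called genes, 402 kept the call under every alternative in which they were fitted. Direction changed only for 3 genes that were not called and lay near 0. RN7SL2 went from -0.03 to 0.016 under median centring, to 0.0725 without MCF10A library 1 and to 0.339 without DCIS.COM library 2, while its lowest value was -0.394 without DCIS.COM library 1. RN7SL1 went from 0.24 to -0.141 without DCIS.COM library 1 and to 0.619 without library 2, and RN7SK from 0.05 to -0.286 and 0.380. The cause was not tested.

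The number of genes whose line difference differed between the vectors, 6 in the fit reported, was 10 with a pseudocount of 1, 0 without the trend (1414 genes at an unadjusted p under 0.05) and 0 with the replicate block (1342), and leaving out 1 library gave 0 to 4414. The alternatives for this count other than no trend, the block and limma-voom (5 genes) were chosen after seeing the data. A fit without 1 library leaves a lone sample that is assumed to vary like the other groups. Samples with the same replicate number did not deviate together across genes (correlations of -0.02 to 0.07). With 2 libraries per group, these values cannot decide whether the numbers pair the libraries. With the replicate block, 3095 and 3283 genes were called, and of the named genes SNORD3B-1 and SNORD3B-2 lost the call.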
